A study of Mus musculus with 18 samples.

Results

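The Hox and Sox genes are 2 families of developmental regulators, and the chromatin regions that lie nearest to them were examined in naive CD4 T cells. The genes were the 58 protein-coding genes of the mouse annotation whose symbol is Hoxa, Hoxb, Hoxc, Hoxd or Sox followed by a number, 39 Hox genes and 19 Sox genes among 21631 protein-coding genes. Peaks of all 18 libraries that overlapped by at least 1 bp were merged into 33115 union regions. A region was taken as a Hox or Sox region when the nearest end of a protein-coding gene, within 50000 bp of the centre of the region, belonged to one of these genes. This gave 36 regions, 20 at Hox genes and 16 at Sox genes.

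The study measured open chromatin by ATAC-seq, in which Tn5 transposase cuts accessible DNA and adds sequencing adapters, in untreated wild-type C57BL6/J mice. Naive CD4 T cells with an Nr4a1-dsGFP reporter, a destabilised GFP that follows T cell receptor signalling, were sorted by GFP level as a readout of tonic stimulation of that receptor. The groups were spleen high and spleen low, mesenteric lymph node high and low, and axillary lymph node high and low, with 3 replicates each. The reporter and the lack of treatment were shared by all 6 groups, and each library was made from 500000 freshly prepared cells tagmented for 30 min. Ages and numbers of mice were not given in the sources used here. The titles call the replicates biological without saying whether they are separate mice; p-values therefore measure spread among these samples, which may in part be technical.

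Hox genes encode homeodomain transcription factors that give cells their position along the body axis. They sit in 4 clusters, in which gene order follows the order of expression in the embryo. Sox genes encode transcription factors with an HMG box, and each group of them is known for a lineage, such as Sox2 in pluripotent and neural cells, Sox9 in cartilage and testis, Sox10 in neural crest and Sox17 in endoderm and endothelium. In differentiated cells many such genes carry the repressive mark of Polycomb complexes over promoters rich in CpG dinucleotides. In mouse T cells, Sox4 acts downstream of TGF-beta and in early thymic development, and Sox13 is known from gamma delta T cells.

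The promoters below show a contrast that runs through the results: CpG-rich starts of both families without a peak, beside starts that were open. Each line gives the 250 bases before the transcription start, 5′ to 3′ on the strand of the gene, from RefSeq (GRCm38.p6, the same build as mm10), with every CpG in capitals. Sox4 (chr13:28953700-28953949, minus strand) and Sox12 (chr2:152398047-152398296, minus strand) lay wholly inside a region found in 18 and 14 libraries. Hoxd13 (chr2:74667975-74668224, plus strand) and Sox1 (chr8:12395269-12395518, plus strand) overlapped no peak in any library.
Sox4: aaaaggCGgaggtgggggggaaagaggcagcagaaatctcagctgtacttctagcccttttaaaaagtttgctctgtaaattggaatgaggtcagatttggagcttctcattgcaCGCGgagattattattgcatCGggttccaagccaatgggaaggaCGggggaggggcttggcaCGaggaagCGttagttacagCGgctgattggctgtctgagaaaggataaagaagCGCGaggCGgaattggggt
Sox12: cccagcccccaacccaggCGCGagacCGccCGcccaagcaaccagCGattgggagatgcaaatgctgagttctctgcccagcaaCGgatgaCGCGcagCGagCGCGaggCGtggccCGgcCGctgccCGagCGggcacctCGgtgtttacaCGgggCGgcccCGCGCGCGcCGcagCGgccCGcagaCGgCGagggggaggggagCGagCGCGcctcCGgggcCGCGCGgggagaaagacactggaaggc
Hoxd13: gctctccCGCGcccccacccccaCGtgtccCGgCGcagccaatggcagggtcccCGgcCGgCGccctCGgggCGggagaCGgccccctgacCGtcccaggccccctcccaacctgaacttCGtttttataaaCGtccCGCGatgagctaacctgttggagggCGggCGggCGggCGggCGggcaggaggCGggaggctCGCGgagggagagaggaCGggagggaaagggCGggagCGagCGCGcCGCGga
Sox1: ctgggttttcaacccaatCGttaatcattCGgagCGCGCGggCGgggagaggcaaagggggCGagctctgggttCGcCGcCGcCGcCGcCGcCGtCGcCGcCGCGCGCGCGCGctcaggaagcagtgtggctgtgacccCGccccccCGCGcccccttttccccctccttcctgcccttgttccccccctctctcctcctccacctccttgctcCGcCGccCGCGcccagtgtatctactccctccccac
The Sox4 stretch had 11 CpG in 250 bases, against 35 for Sox12, 31 for Hoxd13 and 29 for Sox1, so the promoter open in every library was the one with the fewest. Searched on both strands, with overlapping matches counted, the GC box GGGCGG matched 0 times in Sox4, 3 times in Sox12, 7 times in Hoxd13 and 3 times in Sox1. The letters CCAAT matched 4 times in Sox4 and 1 time in each of the others. The ETS core CCGGAA and the RUNX core TGTGGT matched in none of the 4 stretches. Over the same 250 bases of 21045 promoters, the shares with a match were 43.1% for GGGCGG, 35.6% for CCAAT, 15.1% for CCGGAA and 12.2% for TGTGGT. A match is a description of letters and was not tested as a binding site.

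Each library had 14372 to 23129 peaks. Depth, recovered from the peak values as the genome-wide average, was 8.48 to 16.6 reads per 10 kb, deepest in the mesenteric high libraries (16.5 to 16.6) and shallowest in an axillary low library. The fragment length the caller used was 161 to 176 bp in 12 libraries and 216 to 236 bp in 6, which were spleen low replicate 3 and the axillary libraries other than high replicate 2. The smallest peak of every library had 4 reads at its summit, so an absent peak can stand for a few reads and not for closed DNA. In bulk chromatin, opening in a share of the cells and weaker opening in every cell cannot be told apart. All 14 genes of a naive CD4 T cell list had an assigned region within 50000 bp, 8 of them a region in all 18 libraries. No share over all genes was computed for this measure. Within 1000 bp of an end, 78.6% of the list had a region, against 49.9% of all protein-coding genes. For regions in all libraries the shares were 28.6% and 31.2%. Of the B cell list 3 of 7 genes had a region, and of the stromal and endothelial list 4 of 7, none of them in all libraries. Lists of other cell types also had regions: 2 of 2 CD8 T cell genes, 3 of 5 NK cell genes, 4 of 4 erythroid genes and 5 of 9 myeloid genes, each list with 1 region in all libraries, and 3 of 4 regulatory T cell genes, with 3. Within 1000 bp of an end, the share in any library was 14.3% for the B cell and for the stromal and endothelial list. It was 20% for NK cell, 44.4% for myeloid, 50% for CD8 T cell, and 75% for erythroid and for regulatory T cell genes.

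Hox regions were mostly found in few libraries, whereas the median Sox region was found in more libraries than the median of all regions and had a like fold enrichment. Placement differed, as 50% of Hox and of Sox regions lay within 1000 bp of a gene end, against 30.5% of all regions. All regions so placed stood above the Sox regions, with a median of 18 libraries and a median fold of 8.37. Of these, 55.6% were found in all libraries. A Hox or Sox region had a peak in a median of 4 of 18 libraries, 2 for Hox regions and 11.5 for Sox regions, against 8 for all 33115 regions. Peaks were present in all libraries at 3 of the 36 regions (8.33%), all at Sox genes, against 26.4% of all regions. At the other end, 11 regions (30.6%) were found in 1 library, against 19.01% of all regions. The authors' fold enrichment had a median of 6.18 over the Hox and Sox regions, 5.77 for Hox and 6.61 for Sox, against 6.67 over all regions. Ranked by strength within its library, the median region stood at the 20.6th percentile, the 11.5th for Hox and the 26.5th for Sox, against the 27.0th for all regions and the 54.8th for regions within 1000 bp of a gene end. The median number of reads at the summit, taken over the libraries with a peak, was 9.75 for Hox and Sox regions and 10 for all regions.

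**Figure D1:**
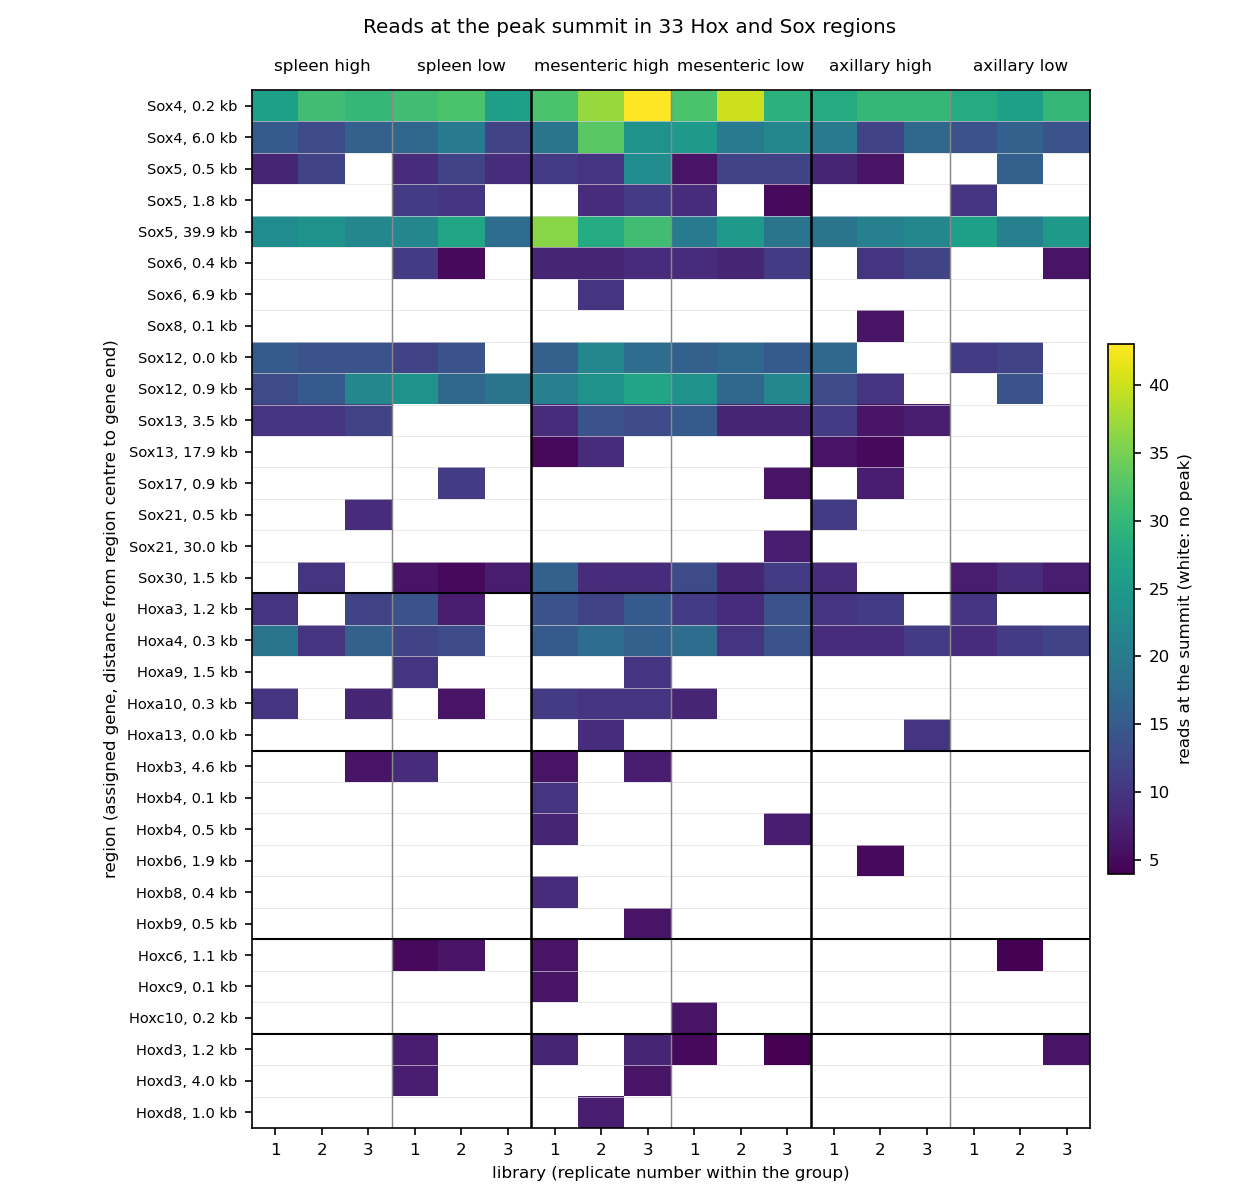
Reads at the peak summit (colour) in 33 of the Hox and Sox regions (rows, named by gene and by distance from region centre to gene end) and 18 libraries (columns, high left of low within an organ); white cells had no peak. The Sox4 rows and the Sox5 row farthest from a gene end are filled in all 18 libraries. The other Sox5 rows are filled in 14 and 7, the Hoxa rows in 2 to 17, and the Hoxb, Hoxc and Hoxd rows in 1 to 6.

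The Hoxa cluster was the exception among the 4 Hox clusters. It holds 11 genes, and its 8 assigned regions, of which 6 lay within its span, gave 69 peaks over the 18 libraries, with at least 1 in every library. Of these 8 regions, 4 had a peak in 9 or more libraries. The Hoxb cluster (10 genes) had 6 regions with 10 peaks in all, the Hoxc cluster (9 genes) 3 regions with 6 peaks and the Hoxd cluster (9 genes) 3 regions with 9 peaks. No Hoxb, Hoxc or Hoxd region reached more than 6 of 18 libraries, and 7 libraries had no peak in any of these clusters. Of their 25 peaks, 12 came from the mesenteric high libraries, which were the deepest. The clusters were not empty of regions when counted by place: within their spans lay 6 Hoxa, 6 Hoxb, 3 Hoxc and 3 Hoxd regions. The spans differ in length, and per 100 kb these were 5.69, 3.45, 2.59 and 3.10 regions. The window of 50 kb to each side of the midpoint of any protein-coding gene held a median of 2 (interquartile range 0 to 5). Both counts take a region whatever its number of libraries.

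**Figure D2:**
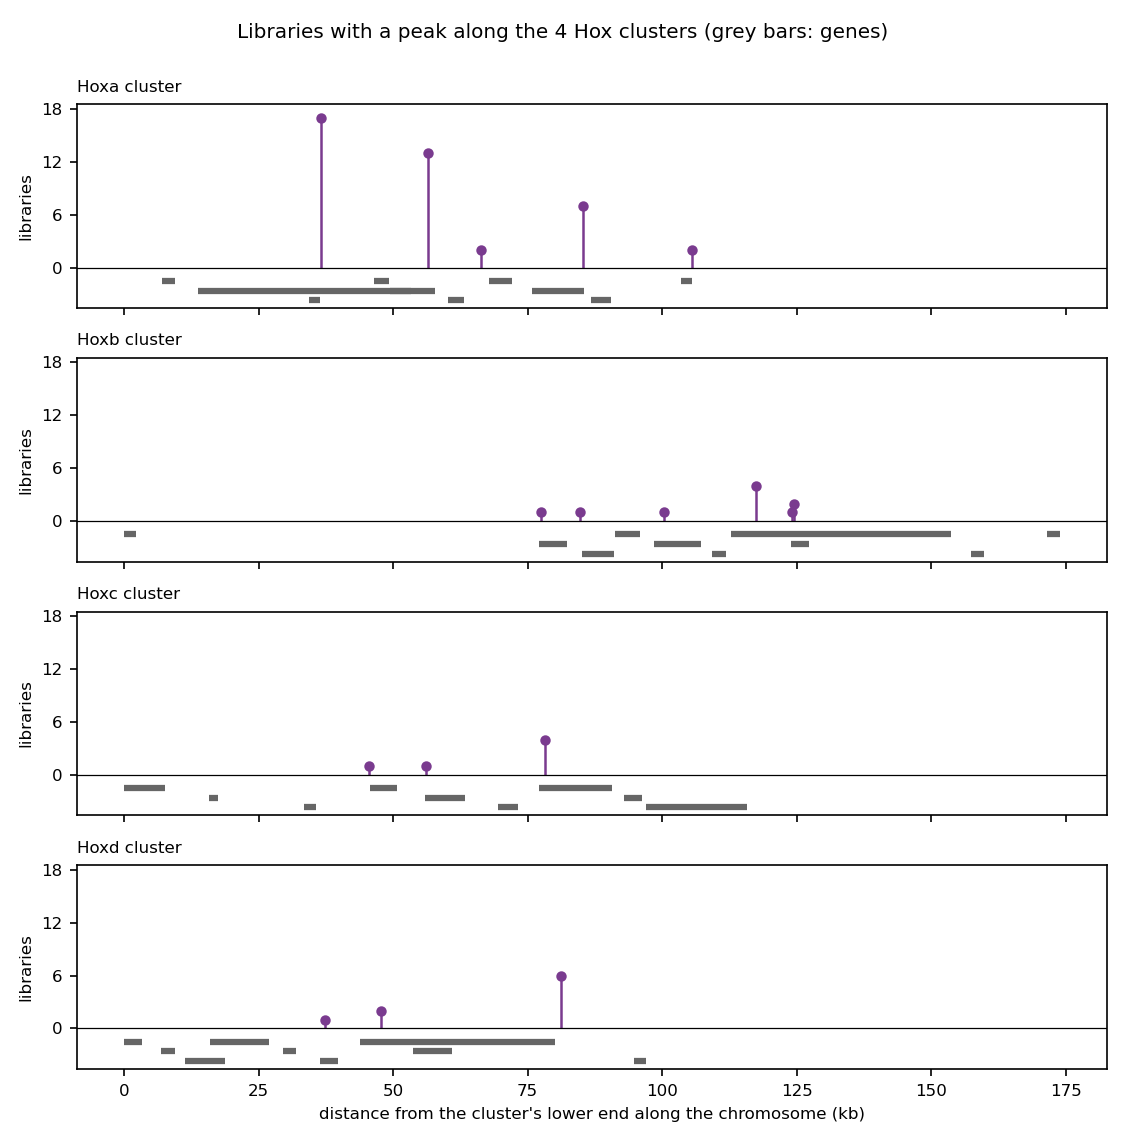
Number of libraries with a peak (vertical axis, of 18) at regions along the 4 Hox clusters, against distance in kb from the lower end of the cluster; grey bars are genes, and results not reported here are not drawn. Hoxa regions reach 17 libraries, Hoxd 6 and Hoxb and Hoxc 4.

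The most frequent Hox region lay beside Hoxa4, an anterior gene of the cluster (chr6:52191731-52192358). Its centre was 341 bp from the end of Hoxa4 and inside the longer Hoxa3 gene, and it had a peak in 17 libraries. It had 19, 10 and 16 summit reads in spleen high libraries, against 12 and 13 in spleen low replicates 1 and 2 and no peak in replicate 3. In mesenteric libraries it had 15, 18 and 16 reads in high and 18, 10 and 14 in low, and in axillary libraries 9, 9 and 11 in high and 9, 11 and 12 in low. High and low values overlapped in every organ, and the library without a peak was the shallowest of the spleen libraries.

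Hoxa3 had a region inside the gene and over the noncoding gene Hoxaas3 (chr6:52211512-52212131, 13 libraries, 7 high and 6 low). It had 10 and 12 reads in spleen high replicates 1 and 3, against 14 and 7 in spleen low replicates 1 and 2. In mesenteric libraries it had 14, 12 and 15 reads in high and 11, 9 and 14 in low. In axillary libraries 10 and 11 reads were seen in high replicates 1 and 2, and 10 in low replicate 1. The values of high and low libraries overlapped throughout.

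Hoxa10, a posterior gene of the cluster that is active in blood progenitors, had a region inside it (chr6:52240352-52240753) in 5 high and 2 low libraries. The reads were 10 and 8 in spleen high replicates 1 and 3 and 6 in spleen low replicate 2, and 11, 10 and 10 in mesenteric high and 8 in mesenteric low replicate 1. No axillary library had a peak there.

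The regions at Hoxa9 and Hoxa13 were rare. The region near Hoxa9 had 10 reads in mesenteric high replicate 3 and 10 in spleen low replicate 1, and the start of Hoxa13, which patterns limbs and the genital tract, had 9 in mesenteric high replicate 2 and 10 in axillary high replicate 3. Of the other Hoxa genes, Hoxa2, Hoxa6, Hoxa7 and Hoxa11 were nearest to no region but had one of a neighbour within 5000 bp, and Hoxa5 had none.

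In the Hoxb cluster the region inside Hoxb3 (chr11:96311586-96311899) was found in 4 libraries. It had 6 reads in spleen high replicate 3, 6 and 7 in mesenteric high replicates 1 and 3, and 9 in spleen low replicate 1. The start of Hoxb4, a gene known for its effect on blood stem cells, had 10 reads in mesenteric high replicate 1, and a second Hoxb4 region 8 in the same library and 7 in mesenteric low replicate 3. Single peaks lay at Hoxb8 with 9 reads in mesenteric high replicate 1, at Hoxb9 with 6 in mesenteric high replicate 3 and at Hoxb6 with 5 in axillary high replicate 2. Hoxb7 was within 5000 bp of a region of a neighbour, and Hoxb1, Hoxb2, Hoxb5 and Hoxb13 had no region within that distance of an end.

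In the Hoxc cluster, Hoxc6 (chr15:102999167-102999576) had 6 reads in mesenteric high replicate 1, 5 and 6 in spleen low replicates 1 and 2, and 4 in axillary low replicate 2. Hoxc9 had 6 reads in mesenteric high replicate 1 and Hoxc10 had 6 in mesenteric low replicate 1. Hoxc4, Hoxc5, Hoxc11, Hoxc12 and Hoxc13 had no region within 5000 bp, and Hoxc8 was within that distance of the Hoxc6 region.

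In the Hoxd cluster the region outside Hoxd3, over the noncoding gene Haglr (chr2:74749320-74749646), was the most frequent, in 2 high and 4 low libraries. Its reads were 8 and 8 in mesenteric high replicates 1 and 3, 7 in spleen low replicate 1, 5 and 4 in mesenteric low replicates 1 and 3, and 6 in axillary low replicate 3. Inside Hoxd3 a second region had 6 reads in mesenteric high replicate 3 and 7 in spleen low replicate 1, and Hoxd8 had 7 in mesenteric high replicate 2. The other seven genes, Hoxd1, Hoxd4, Hoxd9, Hoxd10, Hoxd11, Hoxd12 and Hoxd13, had no region within 5000 bp.

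Of all 58 Hox and Sox genes, 27 (46.6%) had no region within 5000 bp of either end in any library, against 40.8% of protein-coding genes. They were 17 Hox genes and 10 Sox genes, namely Sox1, Sox2, Sox3, Sox7, Sox9, Sox10, Sox11, Sox14, Sox15 and Sox18. Closer in, 18 of the 58 genes (31.0%) had a region within 1000 bp of an end, against 49.9% of protein-coding genes. Such a region was present in at least 9 libraries at 6 genes (10.3%), against 42.3% of protein-coding genes, and in all 18 at 1 gene (1.72%), Sox4, against 31.2%. By family the share with a region in any library was 28.2% for Hox (11 of 39) and 36.8% for Sox (7 of 19). A list of 62 other developmental genes, among them Pax, Irx, Dlx, Lhx and Nkx genes, stood lower, with 5 genes (8.06%). These shares are descriptions over lists chosen with earlier results of these data known, and no test was made of them.

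**Figure D3:**
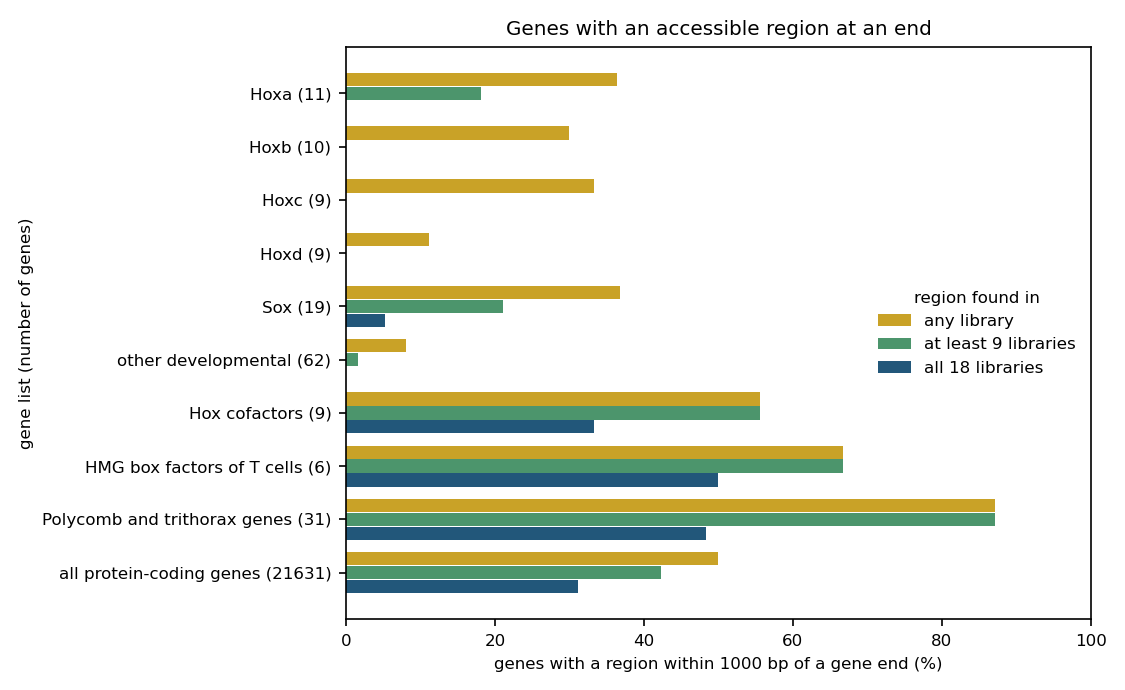
Percent of genes with a region within 1000 bp of a gene end (bars from 0) for each gene list, for regions found in any library, in at least 9 and in all 18. Among the Hox, Sox and other developmental lists, Sox alone has a bar for all libraries, 5.26% against 31.2% for all protein-coding genes.

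Starts of Hox and Sox genes were set beside all starts by CpG number, as counts with no test. RefSeq promoter entries, 250 bases before to 50 after a start, were found for 35 of the 58 genes, 24 promoters of 22 Hox genes and 18 promoters of 13 Sox genes. A start lay inside a region at 2 of the 24 Hox promoters (8.33%), Hoxa13 in 2 libraries and Hoxb4 in 1. It did so at 3 of the 18 Sox promoters (16.7%), Sox4 in 18 libraries, Sox12 in 14 and Sox30 in 14. Over 21045 promoters the share was 44.2%. Among promoters with at least 15 CpG in the 300 bases, 1 of 12 Hox and 2 of 9 Sox starts lay in a region, against 75.02% of 9954 protein-coding promoters and 1 of 38 of the other developmental genes. Sox13, with 40 CpG, Hoxd13 with 37, Sox1 with 37 and Hoxa5 with 29 had no peak at the start. Sox4, with 12 CpG, belongs to the class of 5 to 14, in which 31.1% of all starts lay in a region.

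**Figure D4:**
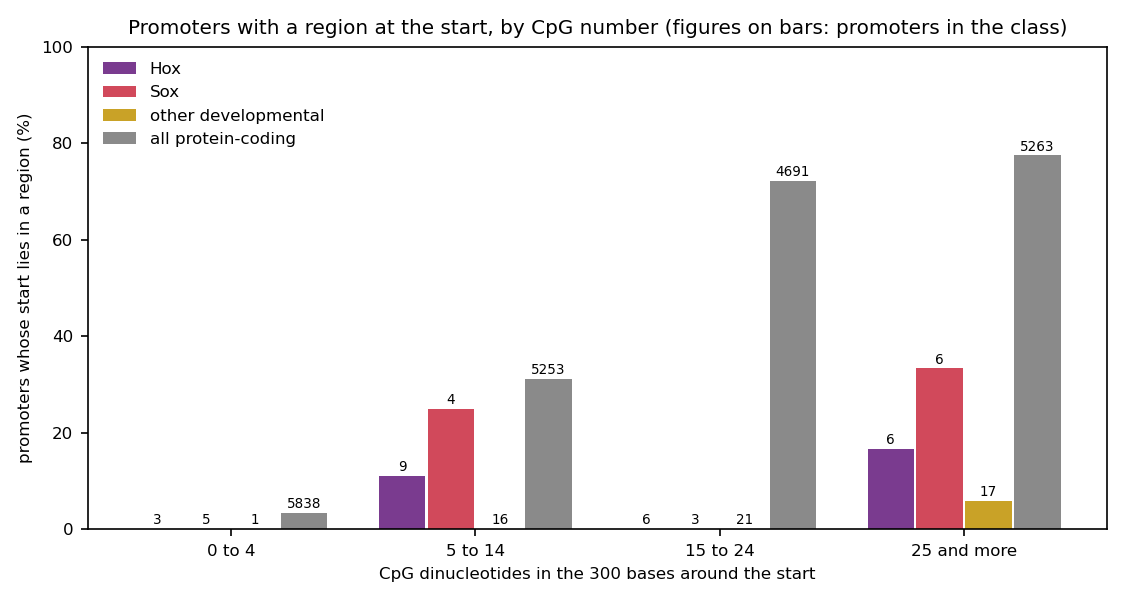
Percent of promoters whose start lies in a region (bars from 0), by number of CpG in the 300 bases around the start, for Hox, Sox, other developmental and all protein-coding genes; the number over each bar is the promoters in that class. In the class of 25 and more, the bars stand at 16.7% for Hox, 33.3% for Sox and 77.5% for all.

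Sox4, an HMG box factor of lymphocytes and many progenitor cells, was the main exception to this pattern. Its first region (chr13:28953012-28954057) covers the transcription start and was the widest of the 36 regions at 1046 bp. It had 26, 31 and 30 summit reads in spleen high libraries, against 31, 32 and 26 in spleen low. In mesenteric libraries it had 32, 37 and 43 reads in high, against 32, 40 and 29 in low, and in axillary libraries 28, 30 and 30 in high, against 28, 26 and 30 in low. High and low values overlapped in each organ, and the authors' fold enrichment was 6.55 to 9.31 over the 18 libraries. Within its libraries the region stood at a median strength percentile of 73.1.

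The second Sox4 region (chr13:28959528-28959966) lay 6047 bp from the start, outside the gene, and was likewise found in all libraries. It had 15, 13 and 16 reads in spleen high and 17, 20 and 12 in spleen low, 19, 33 and 24 in mesenteric high and 25, 20 and 22 in mesenteric low, and 20, 12 and 17 in axillary high and 14, 16 and 14 in axillary low. The highest value, 33, came from a mesenteric high library, where depth was highest.

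Sox5, a factor of cartilage and neural development with a gene of 953863 bp, had the third region found everywhere (chr6:143868059-143868581). It lies inside the gene, 39894 bp from its nearer end and 78787 bp from the start in the promoter table. Its reads were 23, 24 and 22 in spleen high and 22, 27 and 18 in spleen low, 36, 28 and 31 in mesenteric high and 20, 25 and 19 in mesenteric low, and 19, 21 and 22 in axillary high and 26, 21 and 25 in axillary low. This was the strongest Hox or Sox region by fold enrichment, with a median of 11.2 and a strength percentile of 78.7. Scaled for library size, the mesenteric values overlapped (21.6 to 27.8 in high, 18.8 to 24.6 in low).

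The 50000 bp limit left out regions deeper inside the long Sox genes. Of 13 regions inside Sox5, 10 lay farther than that from both ends, in 1 to 18 libraries, and of 4 inside Sox6, 2 did, in 17 and 4 libraries. Just outside the limit, a region 56319 bp from an end of Sox5 was found in 11 libraries, and one 77074 bp away was found in all 18. The other Sox5 members lay near the gene ends. The region at chr6:144781422-144782182 was in 14 libraries with 6 to 23 reads, and the region at chr6:143830038-143830512 in 7, with 9 and 11 reads in mesenteric high, 11 and 10 in spleen low, 9 and 5 in mesenteric low and 10 in axillary low.

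Sox12, of the same subgroup as Sox4, had a region over its CpG-rich start (chr2:152397660-152398347, 14 libraries) and another 865 bp away (chr2:152398698-152399126, 15 libraries). At the start it had 15, 14 and 14 reads in spleen high, against 12 and 14 in spleen low replicates 1 and 2. It had 16, 22 and 18 in mesenteric high, against 16, 17 and 15 in mesenteric low, and 17 in axillary high replicate 1, against 11 and 12 in axillary low replicates 1 and 2. The outer region had 13, 15 and 22 reads in spleen high and 24, 17 and 19 in spleen low, 21, 24 and 27 in mesenteric high and 24, 17 and 22 in mesenteric low. In axillary libraries it had 13 and 10 in high replicates 1 and 2, and 14 in low replicate 2. The 4 libraries lacking a peak at the start and the 3 lacking the outer one were axillary libraries or spleen low replicate 3, whose depth was 8.48 to 10.2 reads per 10 kb.

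Sox30, a gene of male germ cells, had a region over its start (chr11:45980199-45980850) in 5 high and 9 low libraries. It had 10 reads in spleen high replicate 2, 16, 9 and 9 in mesenteric high and 9 in axillary high replicate 1. Spleen low had 6, 5 and 7 reads, mesenteric low 13, 8 and 11, and axillary low 7, 9 and 7. Every low library had a peak, at values that overlapped those of the high libraries. Present in 14 libraries, the region fell outside the range of 6 to 12 in which presence was compared between high and low.

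Sox6, a partner of Sox5 in cartilage and a regulator of red cell genes, had a region near a gene end (chr7:116040147-116040531) in 11 libraries, 5 high and 6 low. It had 8, 8 and 9 reads in mesenteric high, against 9, 8 and 11 in mesenteric low. In axillary libraries it had 10 and 12 reads in high replicates 2 and 3, against 6 in low replicate 3. In spleen no high library had a peak, and low replicates 1 and 2 had 11 and 5 reads. The remaining Sox regions were rare. Sox17 had 7 reads in axillary high replicate 2, 11 in spleen low replicate 2 and 6 in mesenteric low replicate 3. Sox21, a neural gene, had 9 in spleen high replicate 3 and 11 in axillary high replicate 1, with 7 in mesenteric low replicate 3 at a region 29998 bp away. Sox8 had 6 in axillary high replicate 2, and a second Sox6 region had 10 in mesenteric high replicate 2.

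High libraries had a mean of 14.6 ± 4.50 Hox and Sox regions and low libraries 12.9 ± 4.26 (SD, n = 9 each), a difference smaller than the spread. As a share of all regions of a library, they made up 0.0780% in high and 0.0790% in low. By organ the counts were 11 ± 1 in spleen high and 13.7 ± 5.13 in spleen low, 20 ± 1 in mesenteric high and 16 ± 2.65 in mesenteric low, and 12.7 ± 3.21 in axillary high and 9 ± 1 in axillary low (SD, n = 3 each). Spleen low held 18 and 15 regions in replicates 1 and 2 and 8 in replicate 3. With every library thinned to the depth of the shallowest, the means were 9 and 11.3 in spleen high and low, 14 and 13.7 in mesenteric high and low, and 12 and 8.67 in axillary high and low. With lists cut to equal length they were 9 and 8.67, 8 and 11.7, and 10 and 9 in the same order, so the order turned round in mesenteric nodes and in spleen. Of the 11 regions found in 1 library, 9 were in a high library, 6 of these mesenteric, against 74.5% in a high library and 49.4% in a mesenteric high library among all 6294 such regions.

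Presence of a peak was compared between 9 high and 9 low libraries by Fisher's exact test, two-sided, in 5737 regions found in 6 to 12 libraries, with Benjamini-Hochberg adjustment over all of them. None of the 5737 regions had an adjusted p under 0.05. Of the 6 Hox and Sox regions tested, 1 had an unadjusted p under 0.05, with more high libraries, against 5.84% of all regions tested. None had more low libraries, against 0.261% of all regions. The region was Sox13, and 1 of 6 is too few to set beside that share as a result about the family. The regions tested at Hoxd3, Hoxa10, Sox5 and Sox6 had unadjusted p of 0.335 to 1 by the same exact test.

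The Sox13 region (chr1:133385539-133386085) lies inside the gene, 3511 bp from an end and 38401 bp from the start, and was present in all 9 high libraries and in 3 low ones. It had 10, 10 and 12 reads in spleen high and no peak in any spleen low library. It had 9, 14 and 13 in mesenteric high, against 15, 8 and 8 in mesenteric low, and 11, 6 and 7 in axillary high, against no peak in any axillary low library. The low libraries with a peak were thus all mesenteric, where high and low values overlapped. Fisher's exact test gave p = 0.00905, and the adjusted p was 0.455. Over the 25 alternatives that gave a test, the adjusted p was 0.240 to 1. Without the mesenteric libraries the counts were 6 of 6 high and 0 of 6 low (exact p = 0.00217, adjusted p = 1). At equal depth they were 7 high and 3 low (exact p = 0.153), with a peak in 3 spleen, 6 mesenteric and 1 axillary libraries, and with lists of equal length 7 and 2 (exact p = 0.0567). Among the 12 libraries with short fragments they were 7 of 7 high and 3 of 5 low (exact p = 0.152). Among peaks of stricter p they were 4 high and 1 low. Depth was 13.2 to 14.04 reads per 10 kb in spleen high and 9.84 to 14.4 in spleen low, and 9.60 to 10.2 in axillary high and 8.48 to 9.53 in axillary low.

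A second Sox13 region (chr1:133400003-133400400), 17901 bp from an end, had 5 and 9 reads in mesenteric high replicates 1 and 2 and 6 and 5 in axillary high replicates 1 and 2, with no peak in a low library. It was in too few libraries to be tested. The start of Sox13 had no peak in any library. Of 7 marker genes of gamma delta and innate-like T cells, 4 were in the annotation and 2 of these had regions, 6 in all. High libraries had 1 to 4 of these regions and low libraries 1 to 3, none was found in all libraries, and Zbtb16 and Blk had none. The part of such cells in the Sox13 counts was not tested.

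**Figure D5:**
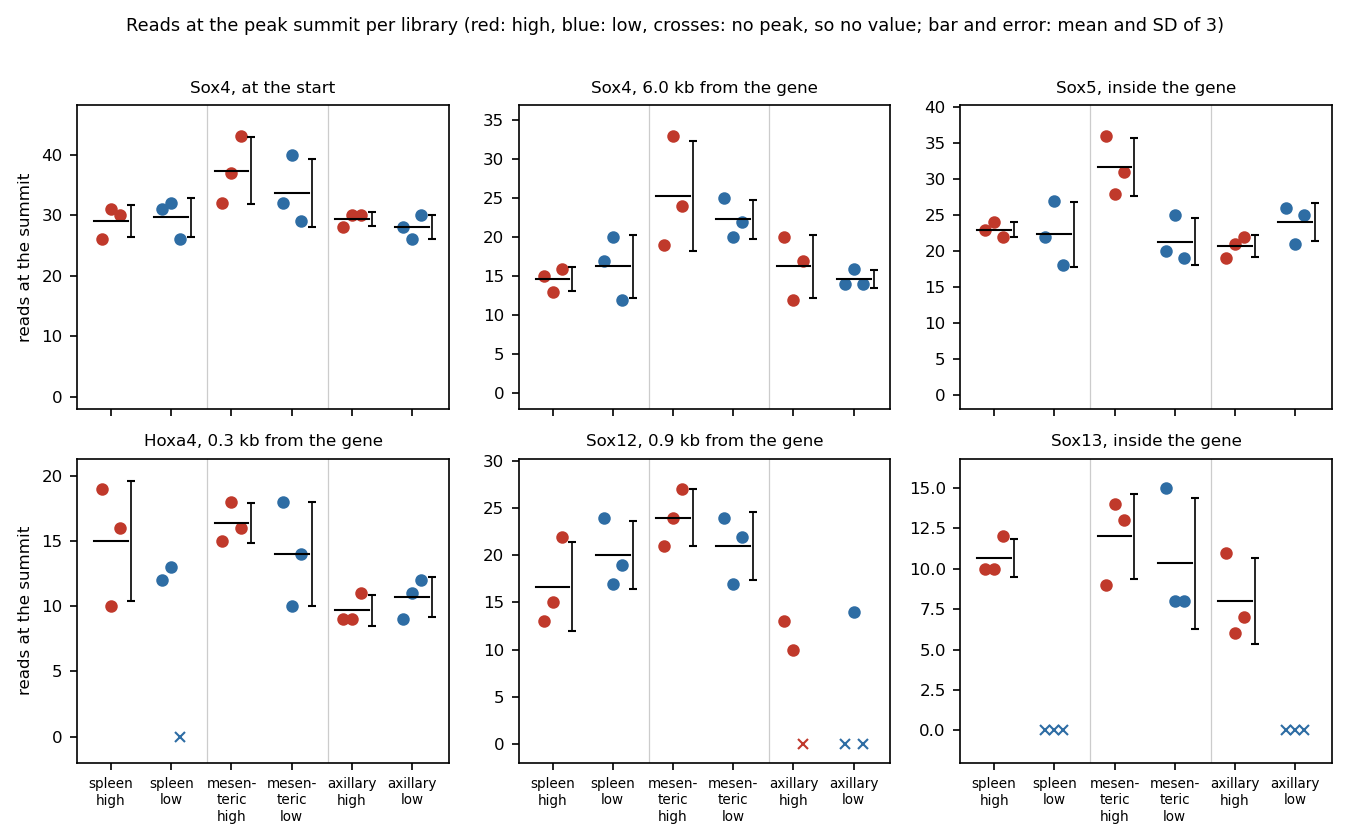
Reads at the peak summit (vertical axis) in each library for 6 regions, by group with high (red) left of low (blue); bars and error bars are the mean and SD of groups with 3 values, and crosses mark libraries without a peak. Sox4 and Sox5 values overlap between high and low in the spleen and axillary nodes, and Sox13 has crosses in all 3 spleen low and all 3 axillary low libraries.

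Where every library had a peak, the level itself was compared, as log2 of scaled summit reads, in 8756 regions with limma. Of all these regions, 0.594% had an adjusted p under 0.05 for high against low, 0.514% higher and 0.0799% lower in high. The 3 Hox and Sox regions among them had none, and none at an unadjusted p under 0.05 by limma, against 11.7% of all regions. At the Sox4 start, scaled summit reads were 30.4 ± 3.46 in high and 31.7 ± 3.59 in low (SD, n = 9 each). The log2 difference was -0.060 with a standard error of 0.0892 and a 95% interval of -0.24 to 0.12 (limma, adjusted p = 0.848). The outer Sox4 region had 17.5 ± 3.86 in high and 18.4 ± 3.61 in low, with a difference of -0.073 and an interval of -0.30 to 0.16 (limma, adjusted p = 0.853). Sox5 had 23.7 ± 2.25 in high and 23.6 ± 4.07 in low, with a difference of 0.016 and an interval of -0.19 to 0.22 (limma, adjusted p = 0.965). These intervals bound the differences and do not show that the levels were equal. The sign at the Sox4 start and at Sox5 was not stable: it was 0.013 at Sox4 and -0.080 at Sox5 without the mesenteric libraries, and -0.10 at Sox5 with libraries scaled by genome-wide average.

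The high against low difference was not found to vary by organ. A limma F test of the interaction had an adjusted p under 0.05 in 0% of regions, and an unadjusted p under 0.05 in 9.56%. The adjusted p was 0.850 and 0.858 at the Sox4 regions and 0.678 at Sox5.

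Between organs, presence was compared with the exact Fisher-Freeman-Halton test in 7630 regions found in 5 to 13 libraries, none of which had an adjusted p under 0.05. Of 7 Hox and Sox regions tested, 0 had an unadjusted p under 0.05, against 11.2% of all regions. The smallest exact p was 0.0950, at Hoxa10, found in 3 spleen, 4 mesenteric and 0 axillary libraries, and at Sox6, found in 2, 6 and 3. Both had an adjusted p of 0.385 by this test. Summit reads across organs had an adjusted p under 0.05 in 6.75% of 8756 regions (limma F test), and in 0 of the 3 Hox and Sox regions. The outer Sox4 region had the smallest p among them, 0.0355 unadjusted and 0.161 adjusted, against 25.8% of all regions under 0.05 unadjusted. Its scaled reads were 15.8 ± 2.76 in spleen, 20.7 ± 4.07 in mesenteric and 17.3 ± 2.44 in axillary libraries (SD, n = 6 each), with ranges that overlapped. The Sox4 start had 29.9 ± 2.25, 30.9 ± 5.00 and 32.3 ± 2.81 in the same order, and Sox5 had 23.1 ± 2.83, 22.7 ± 3.35 and 25.2 ± 3.35.

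Genes whose products work with these families are given beside them, from lists, with no test. Of 31 Polycomb and trithorax genes, which encode the complexes that hold developmental genes silent or active, 27 (87.1%) had a region within 1000 bp of an end, the same 27 in at least 9 libraries. They included Ezh2, Eed and Suz12, the core of Polycomb repressive complex 2, and Rnf2, a ubiquitin ligase of complex 1, each in all 18 libraries. Without one were the demethylase genes Kdm6a and Kdm6b, which had a region in 18 libraries within 5000 bp, and Cbx7 and Phf19, which had none within that distance. Within the 50000 bp limit, 2 regions were nearest to Cbx7, the more frequent in 13 libraries, and none to Phf19. Of 9 Hox cofactor genes, whose TALE homeodomain proteins bind DNA with Hox proteins, 5 had a region within 1000 bp, among them Pbx3, Pbx4 and Pknox1 in 18 libraries and Pknox2 in 9. Pbx2 and Meis3 had one within 5000 bp, in 18 and 15 libraries, and Meis1 and Meis2, partners of Hoxa9 in blood progenitors, had none. Of 6 HMG box genes of T cells outside the Sox family, 4 had a region within 1000 bp, Tox, Bbx and Hbp1 in 18 libraries and Tox2 in 14. Lef1 had one within 5000 bp in 17 libraries, and Tcf7 had none within 5000 bp of an end. Farther out, within the 50000 bp limit, 7 regions were nearest to Tcf7 and 12 to Lef1. Each gene had a region among these in all 18 libraries, so a lack of regions at the ends does not mean a closed locus.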

How the data were processed

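ATAC-seq peak lists of 18 libraries were used, 1 list per library on mm10. Trimmomatic 0.33, MACS, Bowtie2 and bedtools are named per the submitters' processing notes; other versions, caller options, read shifting and duplicate handling were not given in the sources used here. Peak names in the deposited files record that a blacklist was applied and that MACS called the peaks. Each deposited peak holds a score (the integer part of 10 times −log10 p), a fold (the ratio of summit reads to local background) and the −log10 of p and of q, all the authors' own values. The lists hold 314829 peaks; 404 off chromosomes 1 to 19 and X were set aside, leaving 314425.

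Summit reads were recovered from the deposited fold, (reads + 1)/(background + 1), and −log10 p, a Poisson tail. Exactly 1 whole number fitted both within 0.002 in 99.3% of peaks, and a value was found for 100%, using that local reads per 10000 bp must be whole within 0.02. These are overlapping extended reads at a single base, not counts over a region, so no count model was fitted. Their small number limits precision, and intervals cover counting error and library spread only. In regions with a peak in all libraries, chi-square per region was 0.512 to 0.636 in 18 pairs of replicates of a group. It was 0.621 to 0.940 in 135 other pairs. Pairs of both kinds lay below the Poisson value, so these values do not measure how well replicates agree. No replicate pair stood apart from the other replicate pairs on this measure. All were kept as replicates as labelled, and these values cannot decide whether that was right.

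A library had a region when its peak overlapped by at least 1 bp. Presence was tested with exact tests (scipy 1.17.1), levels with limma 3.58.1 on log2(summit reads scaled by median-of-ratios factors + 0.5) in regions with a peak in all libraries, organ and reporter level as additive terms. Adjustment by Benjamini-Hochberg at 0.05 ran over all regions. Genes, strands and promoters came from RefSeq (GRCm38.p6); strand was used only where a promoter entry gave it, so distances are to the nearer gene end, and a region is called inside or outside a gene. Scripts were tested on simulated data. Alternatives were stricter peaks, lists of equal length, equal depth, wider overlap (0.5 of a peak), organ strata, a replicate block, other scaling, pseudocount and filter, other distances and leaving out each library. The other 4 were added after seeing the data: libraries with fragments under 200 bp (for 3 results) and summit reads per local read. The members and lists were chosen with earlier results of these data known. By rule, Hox and Sox genes were named, with values per library for regions at or inside their genes; genes of other lists were named by presence of a region at an end. Results on a few genes are not reported here.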

Additional observations from a re-analysis of the deposited data

How the results depend on the processing

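The number of Hox and Sox regions with an unadjusted p under 0.05 for high against low, 1 in the exact test, was 0 with stricter peaks, with lists of equal length, at equal depth and among libraries with short fragments, and 1 with any library left out. Across organs it was 2 of 8 tested with stricter peaks (the outer Sox12 region and Sox30), against 693 of 6001 among all regions tested. At equal depth it was 1 of 9, against 531 of 7168. In the main exact test it was 0, and with a library left out 0 to 2, against 989 to 1392 of 7630. The members tested are too few to set beside these counts as a result about the families. No region had an adjusted p under 0.05 for high against low in presence under any alternative; across organs 0 to 25 had with a library left out, 25 without axillary high replicate 1. Calls of summit reads for high against low, 52 in limma, were 29 with genome-wide average as size (which moved the median log2 difference of all regions by -0.11), 17 with a mean of at least 30 reads, 16 without mesenteric libraries, 7 among short-fragment libraries and 37 to 55 with a library left out. Across organs the 591 calls were 3265 with genome-wide average as size, when the 3 Hox and Sox regions were also called, 15 among short-fragment libraries and 348 to 614 with a library left out, 348 without axillary high replicate 3 and 371 without axillary low replicate 1. With a library left out, Hox and Sox calls of summit reads were 0 to 0 in both comparisons. The log2 difference at the Sox4 start was 0.013 without mesenteric libraries. At Sox5 it was -0.10 with genome-wide average as size, -0.080 without mesenteric libraries, -0.034 per local read and -0.026 to 0.061 with a library left out. The median number of Hox and Sox regions per library, 13.5, was 7 with stricter peaks, 9 with lists of equal length and 13 to 14 with a library left out. The share of Hox and Sox genes with a region at an end was 53.4% within 5000 bp and 1.72% for regions in all libraries. The cause of these changes was not tested.

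No sign of pairing by replicate number was seen: deviations of libraries with the same number correlated at -0.027 to 0.036. Of 18 libraries, 7 correlated best with their own number. Summit reads are few and noisy, so this check cannot exclude that libraries with the same number came from the same mice. With a replicate block, limma made 53 calls for high against low and 535 across organs, presence tests made 0 calls, and the Sox13 region had an exact p of 0.016 (adjusted p = 0.685). Peaks of few reads and libraries of unlike depth limit what an absent peak can show.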
